A study of Mus musculus with 8 samples.

Results

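The neutrophil granule genes are 10 of the 22059 genes listed by symbol in the 8 whole-liver RNA-seq files. They were taken by name, and all 10 were found and passed the filter on low counts. They fall into 4 genes of the primary (azurophil) granules (Mpo, Elane, Prtn3 and Ctsg), 4 genes of the secondary (specific) granules (Ngp, Camp, Ltf and Lcn2) and the pair S100a8 and S100a9, whose products are abundant in the cytosol of late and mature neutrophils. The livers came from wild-type FVB mice (the inbred substrain FVB/NJ in the Methods), with 2 samples at each of 4 stages: embryonic day 18 (E18), postnatal day 14 (P14), postnatal day 28 (P28) and adult (3 months in the Methods). No allele or treatment was applied to any group, and the labels do not say whether a sample was 1 liver or a pool. The study set these stages side by side to describe how the liver transcriptome changes after birth. The number of reads on genes lay between 68154675 and 106055723 per sample.

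Neutrophils are made in a fixed order, and their granules are filled in the same order. Primary granule proteins are made in promyelocytes, secondary granule proteins in myelocytes and metamyelocytes, and the S100 proteins from then on into the mature cell. Before birth the liver is a blood-forming organ, and this work passes to the bone marrow around birth. Bulk RNA cannot tell fewer cells of a type from less RNA per cell, and this holds for each level below.

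The stretches of promoter shown here are those of the members that hold the letters AGGAAGT or TTGGGCAA, and were taken from RefSeq on GRCm38.p6, in which all 10 genes have an entry. They were chosen for these letters and not for a shared course. The reads themselves were aligned to mm9, so these positions are not those of the files. Each line gives 80 bases before the transcription start, read 5′ to 3′ on the strand of the gene. In the first 5 lines the capitals mark AGGAAGT, the core of ETS-type sites such as those of PU.1, a factor of myeloid cells, and on the S100a8 line they mark the same letters on the opposite strand. In the last 2 lines the capitals mark TTGGGCAA, a match to the C/EBP-type pattern TTNNGNAA.

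Mpo, chr11:87793534-87793613, + strand: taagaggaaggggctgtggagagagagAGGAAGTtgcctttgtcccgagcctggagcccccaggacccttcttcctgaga
Elane, chr10:79886192-79886271, + strand: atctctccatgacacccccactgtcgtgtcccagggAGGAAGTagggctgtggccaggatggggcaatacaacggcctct
Prtn3, chr10:79879537-79879616, + strand: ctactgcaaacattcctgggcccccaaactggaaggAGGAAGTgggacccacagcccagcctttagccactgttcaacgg
Ctsg, chr14:56102737-56102816, - strand: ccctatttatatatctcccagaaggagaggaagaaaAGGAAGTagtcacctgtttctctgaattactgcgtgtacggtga
S100a8, chr3:90668863-90668942, + strand: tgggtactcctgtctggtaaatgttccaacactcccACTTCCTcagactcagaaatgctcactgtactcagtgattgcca
Ngp, chr9:110419728-110419807, + strand: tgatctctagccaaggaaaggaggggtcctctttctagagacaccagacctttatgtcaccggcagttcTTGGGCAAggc
Ltf, chr9:111019181-111019260, + strand: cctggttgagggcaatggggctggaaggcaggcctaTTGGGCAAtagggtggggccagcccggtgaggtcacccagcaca

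AGGAAGT was searched on both strands of the 250 bases before each start. It was found in the promoters of 4 of the 4 primary granule genes, in 0 of the 4 secondary granule genes and in 1 of the S100 pair, and in 7.69% of all 32851 promoters of the same length. The pattern TTNNGNAA, also searched on both strands, was found in 0 of the 4 primary genes, in 3 of the 4 secondary genes (Ngp, Ltf and Lcn2) and in both S100 genes. It is a common pattern, present in 36.8% of all promoters. The letters AACGG, a MYB-type core, lay 50 bases before the start of Elane and 55 bases before that of Prtn3, and were found in 14.5% of all promoters. Elane and Prtn3 are adjacent genes on chromosome 10, and S100a8 and S100a9 are adjacent on chromosome 3. The letters were chosen with the promoters in view, so these counts do not test a difference between the classes or from all promoters. These matches are a description of letters and not of binding.

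At E18 all 10 genes were well above the smallest level that the depth can show, and S100a9 and S100a8 led. In RPKM, which is scaled by gene length and so can be compared between genes, S100a9 stood at 790.5 ± 137 (SD, n = 2) and S100a8 at 723.8 ± 118. Camp (199.7 ± 43.8), Ngp (163 ± 32.5) and Mpo (156.8 ± 13.6) followed. Prtn3 (102.9 ± 2.89), Elane (68.1 ± 2.53), Lcn2 (65.9 ± 20), Ctsg (51.8 ± 3.02) and Ltf (38.7 ± 7.44) were lower. With 2 samples a stage, S100a9 and S100a8 lay within their spread of each other, as did Camp, Ngp and Mpo, and Lcn2 lay within its spread of both Elane and Ctsg. At P14 the order was S100a9 (94.3 ± 6.85), S100a8 (73.2 ± 3.14), then Lcn2 (27.7 ± 3.98), Ngp (26.6 ± 1.23) and Camp (26.5 ± 0.0294), which lay within their spread, then Ltf at 6.13 ± 0.189, with the 4 primary genes last, from Prtn3 at 2.69 ± 0.234 down to Ctsg at 0.929 ± 0.137. From P28 on, Lcn2 led, at 6.96 ± 0.708 at P28 and 5 ± 2.01 in the adult, and the other 9 genes lay at or below 2.57. Of all reads on genes, the 10 members held 0.176% and 0.2% at E18. That share was 0.0176% and 0.0191% (P14), 0.00118% and 0.000919% (P28), and 0.000453% and 0.000949% (adult).

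**Figure D1:**
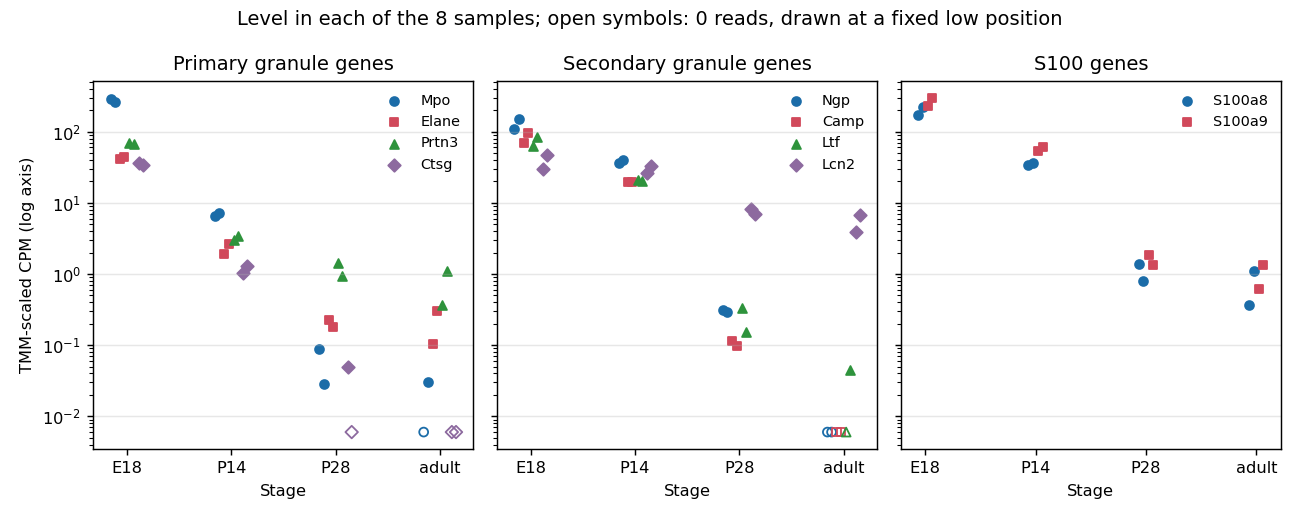
TMM-scaled CPM (counts per 1000000 reads, log axis) of each gene in each of the 8 samples, by stage, in a panel for each class; each point is 1 sample, and open symbols at a fixed low position are samples with 0 reads. By P14 the primary granule genes are 18.9-fold to 39.8-fold below E18 and Ngp, Camp, Ltf and the S100 pair 3.38-fold to 5.46-fold. Ngp, Camp, Ltf and the S100 pair drop by a larger fold from P14 to P28, and Lcn2 stays at 3.87 to 8.14 CPM from P28 on. For Ctsg, which interval has the larger drop depends on the scaling. For Mpo it is the second under each scaling of counts, but not with limma on log2(RPKM + 0.1).

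Counts were compared between stages with the quasi-likelihood test of edgeR, and a gene was called changed at an adjusted p below 0.1 and a change over 3-fold. From E18 to adult all 10 genes fell, against 23.8% of the 17081 genes tested that decreased. Their median log2 fold change was -9.76, and the median over all tested genes was -0.11. In 5 of the 10 genes the adult samples together held 3 reads or fewer, so that the fitted value rests on edgeR's prior count. With these genes set at the fold that their reads allow, the median was -8.78.

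The 4 primary granule genes had the largest falls of the 10 by P14, and Mpo, Elane and Ctsg fell again by P28. Mpo encodes myeloperoxidase, the enzyme that makes hypochlorous acid, and is a marker of promyelocytes. Mpo had 285.7 and 258.9 TMM-scaled CPM (39653 and 31687 reads) in the E18 samples and 6.57 and 7.12 (602 and 635 reads) in the P14 samples. The P28 samples held 0.0875 and 0.028 CPM (7 and 2 reads) and the adult samples 0 and 0.0301 (0 and 2 reads). Both samples of each stage lay below both samples of the stage before up to P28, and the adult and P28 samples overlapped. It fell 39.8-fold from E18 to P14 (log2 fold change -5.31, SE 0.16, edgeR adjusted p = 1.6e-08) and 118.5-fold from P14 to P28 (-6.82, SE 0.28, edgeR adjusted p = 7.7e-07). Between E18 and adult the ratio of pooled reads was 17010-fold, with a 95% counting interval of 4710 to 140500. An antisense gene overlaps Mpo in GENCODE M21, and without strand the reads of the 2 cannot be told apart.

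Elane encodes neutrophil elastase and Prtn3 proteinase 3, serine proteases of the same granule. Elane started at 41.1 and 44.4 CPM (E18) and went to 1.91 and 2.61 (P14), 0.225 and 0.182 (P28), and 0.103 and 0.301 (adult). It was 18.9-fold lower at P14 than at E18 and 11.1-fold lower at P28 than at P14, and the adult samples lay on either side of the P28 samples. Prtn3 started at 68.6 and 67.6 CPM (E18) and went to 3.01 and 3.44 (P14), 1.41 and 0.937 (P28), and 0.361 and 1.11 (adult). Its fall to P14 was 21.1-fold, but from P14 to P28 it was lower by 2.75-fold (log2 fold change -1.45, SE 0.32, edgeR adjusted p = 0.0058), which did not pass the 3-fold threshold. Among the primary genes Prtn3 was thus the highest at P28 and in the adult, with 113 and 67 reads at P28 and 21 and 74 in the adult, and the ratio of its RPKM to that of Elane was 1.25 to 1.58 at E18 and P14, 4.89 and 5.95 at P28, and 3.32 and 3.51 in the adult. In GENCODE M21 Prtn3 overlaps a protein-coding gene, Plppr3, on the opposite strand, and reads of the 2 cannot be told apart where the counting does not use strand, so its late level is uncertain.

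Ctsg encodes cathepsin G, the remaining serine protease of these granules. It had 36.4 and 34.4 CPM at E18, 1.02 and 1.28 at P14, and 4 and 0 reads at P28. Both adult samples had 0 reads, where 3 reads would be 0.0516 and 0.0452 CPM, so it was at least 731.2-fold lower in the adult than at E18. Its fall was 30.7-fold from E18 to P14 (log2 fold change -4.94, SE 0.24, edgeR adjusted p = 4.9e-07). Mcpt8, the gene next to Ctsg and a protease of basophils, went from 714 and 1049 reads at E18 to 28 and 42 at P14 and 1 and 0 at P28.

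The secondary granule genes Ngp, Camp and Ltf fell in 2 unequal steps, a smaller one by P14 and a larger one by P28. Ngp, neutrophilic granule protein, is a relative of the cathelicidins, and Camp encodes the cathelicidin antimicrobial peptide. The CPM of Ngp was 109.6 and 149.2 (E18), 36.8 and 39.7 (P14), then 0.313 and 0.294 (P28), with 0 reads in both adult samples. That of Camp was 68.2 and 95.5 (E18), 19.5 and 19.7 (P14), then 0.113 and 0.0979 (P28), again with 0 reads in both adult samples. The groups did not overlap at any step in either gene. Ngp fell 3.38-fold from E18 to P14 and 126.1-fold from P14 to P28, and Camp fell 4.17-fold and 186.4-fold. The size of the first step depends on the scaling. With TMM the log2 fold changes of Ngp, Camp and Ltf from E18 to P14 were -1.76, -2.06 and -1.81. With library size alone they were -2.62, -2.92 and -2.67. Relative to E18 the adult samples were at least 2674-fold lower in Ngp and at least 1691-fold lower in Camp.

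Ltf encodes lactoferrin, an iron-binding protein. Its CPM was 61.9 and 83.3 (E18), 21.1 and 20.4 (P14), 0.338 and 0.154 (P28), and 0 and 0.0452 (adult), and the stages did not overlap. It fell 3.5-fold from E18 to P14 and 84.5-fold from P14 to P28. The step from E18 to P14 rests on the second E18 sample for Ngp and Ltf. Without that sample their log2 fold changes were -1.52 and -1.57, just short of 3-fold, and 7 of the 10 genes were called in place of 9.

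Lcn2, which encodes lipocalin 2, a binder of bacterial siderophores, did not follow the other secondary granule genes. Its CPM was 29.7 and 47.2 (E18), 26.1 and 32.4 (P14), 8.14 and 6.91 (P28), and 3.87 and 6.75 (adult). The E18 and P14 samples overlapped in CPM (log2 fold change -0.4, SE 0.26, edgeR adjusted p = 0.2). In RPKM they did not, at 51.7 and 80 (E18) and 24.9 and 30.5 (P14), and with library size alone the log2 fold change was -1.26 (edgeR adjusted p = 0.0018), still under 3-fold. It fell 3.88-fold from P14 to P28 (-1.96, SE 0.28, edgeR adjusted p = 0.0006) and was 7.24-fold lower in the adult than at E18 (-2.85, SE 0.29, edgeR adjusted p = 1.5e-05). With 225 and 448 reads it was the member with the most reads in both adult samples. Lcn2 is also known as a hepatocyte acute phase gene. Of 15 acute phase genes, 12 rose from E18 to P14 (13.8% of all genes) and 5 from P14 to P28 (616 of all 17081 genes). Saa1, picked after its values were seen, rose from 3 and 4 reads (E18) to 2.69 and 3.03 CPM (P14) and 21.4 and 46.7 CPM (P28), with 39.2 and 89.9 in the adult. Saa3 was called in neither interval. From P14 to P28 Hp and Hpx had log2 fold changes of -1.34 and -0.68, and 0 of the 15 were called decreased. The part of hepatocytes in the level of Lcn2 was not tested.

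S100a8 and S100a9 encode the subunits of calprotectin, which binds zinc and calcium. S100a9 stood at 228.2 and 299.1 CPM (E18), 53.7 and 60.2 (P14), 1.86 and 1.31 (P28), and 0.619 and 1.34 (adult). S100a8 stood at 169.2 and 218.7 CPM (E18), 34.2 and 36.8 (P14), 1.39 and 0.797 (P28), and 0.361 and 1.11 (adult). The stages were apart up to P28, and P28 and adult overlapped in both genes. S100a9 fell 4.63-fold by P14 and 35.8-fold from P14 to P28 (log2 fold changes -2.21, SE 0.23, and -5.16, SE 0.28, edgeR adjusted p = 2.3e-05 and 3.7e-06), and S100a8 fell 5.46-fold and 32.5-fold. The pair stayed together in every sample. The ratio of the RPKM of S100a8 to that of S100a9 lay between 0.726 and 1.04 in the 8 samples, while the CPM fell 262.9-fold for S100a8 and 269.1-fold for S100a9 from E18 to adult.

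From E18 to P14, 9 of the 10 genes fell, against 15.4% of all genes tested, with Lcn2 the exception. The 4 primary genes had log2 fold changes of -5.31 to -4.24, and the other 6 genes had -2.45 to -0.4, so that the ranges did not overlap. From P14 to P28, again 9 of 10 fell, against 5.98% of all genes, and here Prtn3 was the exception. The log2 fold changes were -7.52 to -6.37 for Ngp, Camp and Ltf, -5.16 and -5.01 for the S100 pair, and -6.82 to -1.45 for the primary genes, so that in this interval the classes overlapped. The median over the 10 genes was -2.33 in the first interval and -5.27 in the second, while that over all tested genes was -0.03 and -0.05.

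Whether a gene fell more in the first or in the second interval was tested in the same edgeR model. The change was lower, that is, the fall larger, in the second interval for Ngp, Camp and Ltf by 5.21 (SE 0.29), 5.46 (SE 0.36) and 4.56 (SE 0.41) on the log2 scale, with edgeR adjusted p of 4.1e-06, 9.1e-06 and 2.5e-05. The same held for S100a9 (2.94, SE 0.39, edgeR adjusted p = 0.00027), S100a8 (2.56, SE 0.49, edgeR adjusted p = 0.0022), Lcn2 (1.56, SE 0.45, edgeR adjusted p = 0.018) and Mpo (1.5, SE 0.46, edgeR adjusted p = 0.023). Prtn3 fell more in the first interval (-2.95, SE 0.53, edgeR adjusted p = 0.0015). The difference did not pass for Elane (-0.78, SE 0.48, edgeR adjusted p = 0.21) or Ctsg (0.44, SE 0.71, edgeR adjusted p = 0.64). The results for Ngp, Camp, Ltf, the S100 pair and Prtn3 held under the other scalings and with limma. Those for Mpo, Lcn2, Elane and Ctsg depend on the scaling or the method. For Mpo the difference kept its sign under each scaling of counts. With library size alone the difference was 0.64 for Mpo (edgeR adjusted p = 0.27) and 0.71 for Lcn2 (edgeR adjusted p = 0.2), and limma on log2(RPKM + 0.1), which shrinks the change of genes near 0, gave -1.83 for Mpo. Elane passed with library size alone, at -1.64 (edgeR adjusted p = 0.015). At an adjusted p below 0.1, the change was lower in the second interval in 32.5% of all genes and in the first in 26.1%, so a difference of either sign is common.

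**Figure D2:**
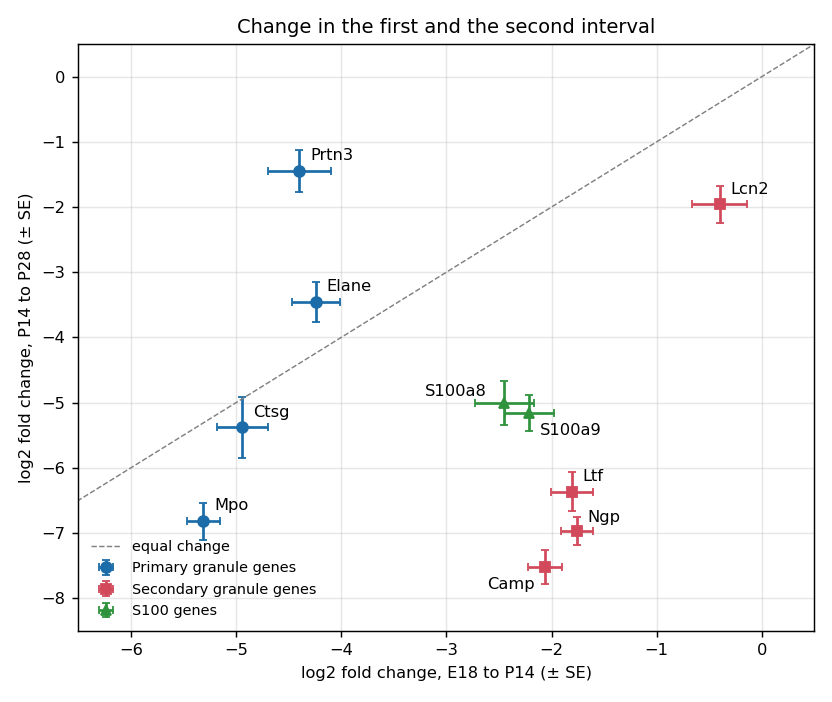
log2 fold change from E18 to P14 (horizontal) against that from P14 to P28 (vertical), each with its SE, for the 10 genes; the dashed line marks equal change. The primary granule genes lie apart from the others on the horizontal axis, at -5.31 to -4.24, but spread from -6.82 (Mpo) to -1.45 (Prtn3) on the vertical axis. Ngp, Camp and Ltf lie far below the line, at -7.52 to -6.37 on the vertical axis. Mpo is below the line as well, and stays there under each scaling of counts, but not with limma on log2(RPKM + 0.1).

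The balance between the classes within a sample does not depend on the scaling between samples. The summed RPKM of the secondary granule genes was 1.01 and 1.47 times that of the primary granule genes at E18, and 11.7 and 10.8 times at P14. These values do not overlap, but an exact permutation test of 2 against 2 samples cannot go below p = 0.33. The RPKM of Ngp was 0.841 and 1.26 times that of Mpo at E18 and 12.3 and 12.2 times at P14. The S100 pair made up 62.9% and 65.1% of the summed RPKM of the 10 genes at E18 and 63.9% and 63.8% at P14, while the primary genes went from 18.5% and 14.1% to 2.85% and 3.08%. At P28, Lcn2 alone made up 49.5% and 56%, and in the adult 62.9% and 52.7%.

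**Figure D3:**
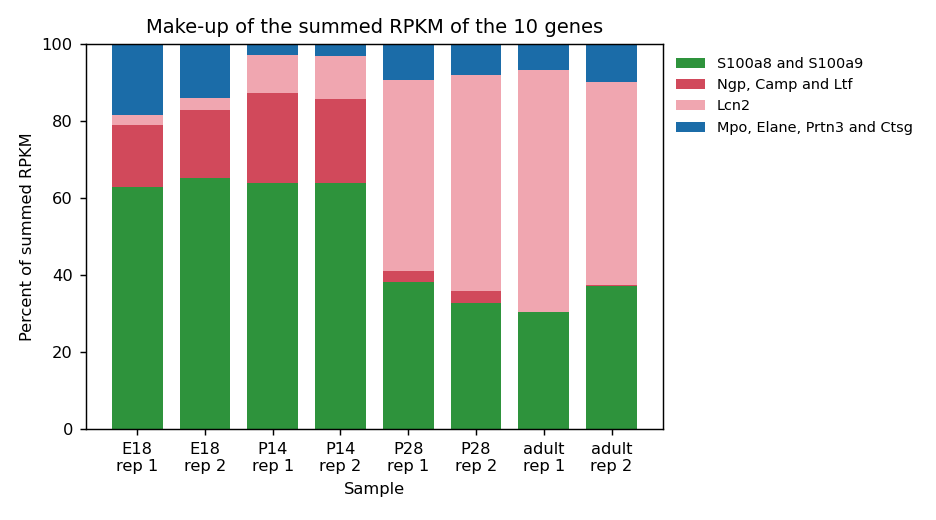
Percent of the summed RPKM of the 10 genes held by each class in each of the 8 samples, with Lcn2 drawn apart from the other secondary granule genes. The share of the S100 pair is alike at E18 and P14 (62.9% to 65.1%), that of the primary genes shrinks from 18.5% and 14.1% at E18 to 2.85% and 3.08% at P14, and Lcn2 takes 49.5% to 62.9% from P28 on.

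From P28 to adult, 3 of the 10 genes were called decreased (Ngp, Camp and Ltf), against 2.24% of all genes. Ngp had 25 and 21 reads at P28 and 0 in both adult samples, at least 6.27-fold lower. Camp had 9 and 7 reads at P28 and 0 in both adult samples, which bounds the fall at only 2.17-fold, so the 3-fold size of its call comes from the fit. Ltf had 27 and 11 reads at P28 and 0 and 3 in the adult, a ratio of pooled reads of 10.4-fold with a 95% counting interval of 3.31 to 52.8. The call for Ltf was lost without the first P28 sample or without the first adult sample (edgeR adjusted p = 0.16 and 0.13), and that for Camp without the second adult sample (edgeR adjusted p = 0.11). The other 7 genes differed by less than the test could call, and S100a8, S100a9, Elane, Prtn3 and Mpo overlapped between the stages.

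The duplicates differed in a way shared by the genes. At E18 the second sample held 1.29 to 1.59 times the CPM of the first in the 4 secondary granule genes and the S100 pair, and 0.906 to 1.08 times in the 4 primary genes. In the adult the second sample held 3.09 times the CPM of the first in Prtn3 and S100a8, 2.92 times in Elane, 2.17 times in S100a9 and 1.75 times in Lcn2. At P28 the second sample held less than the first in all 10 genes, from 0.94 times the CPM in Ngp to 0.32 times in Mpo and 0 in Ctsg. The P14 samples lay closer together, at 0.968 to 1.37 in all 10 genes. The second E18 sample also held more of the markers of pancreatic acinar cells (560 against 259.8 summed CPM, and 14.6 and 14.7 at P14) and of eosinophils, basophils and mast cells (32.3 against 14.1). Their part in the levels of the granule genes was not tested.

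Other neutrophil genes were examined as lists. Of 21 further granule and secreted proteins tested, 19 fell from E18 to adult, against 23.8% of all genes, with a median log2 fold change of -5.95. Ctsc was not among the 19. It rose from P14 (24.5 and 31.1 CPM) to P28 (93.5 and 86.3 CPM), with a log2 fold change of 1.69 (SE 0.16, edgeR adjusted p = 7.5e-05). Stfa3, a stefin, had 2283 and 2829 reads at E18, 141 and 164 at P14 and 0 in all 4 later samples. Ms4a3, a membrane protein of granulocyte precursors, had 2078 and 1926 reads at E18, 37 and 52 at P14 and 3 and 0 at P28. Olfm4, olfactomedin 4 of the secondary granules, had 5384 and 4520 reads at E18 and 185 and 168 at P14. Chi3l3, the chitinase-like protein Ym1, had 247 and 213 reads at E18, 89 and 108 at P14 and 0 in all 4 later samples.

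The components of the phagocyte NADPH oxidase, which makes superoxide, fell as well. All 6 were called from E18 to adult, against 23.8% of all genes that decreased, with a median log2 fold change of -2.98. The first 4 by size were Rac2 (-3.69), Ncf4 (-3.39), Ncf1 (-3.09) and Cyba (-2.88). From P14 to P28 their median was -0.74, and these genes are also used by macrophages.

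Of 9 transcription factors of granulocyte development, 5 fell and 2 rose from E18 to adult, where 23.8% of all genes decreased. Cebpe, the C/EBP factor needed for secondary granules, had 6.59 and 7.15 CPM at E18, 0.764 and 0.785 at P14, and 5 and 1 reads at P28 (log2 fold change from E18 to adult -8.08, SE 0.38, edgeR adjusted p = 7.3e-08). Gfi1, a repressor required for neutrophil formation, fell by 5.97 on the log2 scale. Myb, a factor of dividing blood precursors, fell by 8.38, and Runx1, a factor of blood stem and precursor cells, fell by 4.58. Sfpi1, the gene of PU.1, fell by 2.12, and the macrophage factor Irf8 at -1.08 did not reach 3-fold. Cebpa (3.53) and Cebpb (2.6) rose, against 16.8% of all genes that increased, and both are also hepatocyte factors.

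Of 15 growth factor, chemokine and adhesion genes tested, 8 fell and 2 rose from E18 to adult, with a median log2 fold change of -1.7. Over all genes, 23.8% decreased and 16.8% increased. Cxcl5 (-4.21), a neutrophil-attracting chemokine, Cxcr4 (-3.72), the receptor that holds neutrophils in the marrow, Itgam (-3.54), the integrin CD11b, and Cxcr2 (-3.52), the receptor for release into blood, fell. Cxcl12, the ligand of Cxcr4, rose by 2.24 on the log2 scale, and Cxcl1, a ligand of Cxcr2, by 3.25. With library size alone as scaling, 11 of the 15 were called decreased and 1 increased, where 6159 of all 17081 genes decreased and 1653 increased. Csf3r, the receptor of the growth factor G-CSF, had 332 and 247 reads at E18, 73 and 60 at P14, and 13 and 44 in the adult.

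**Figure D4:**
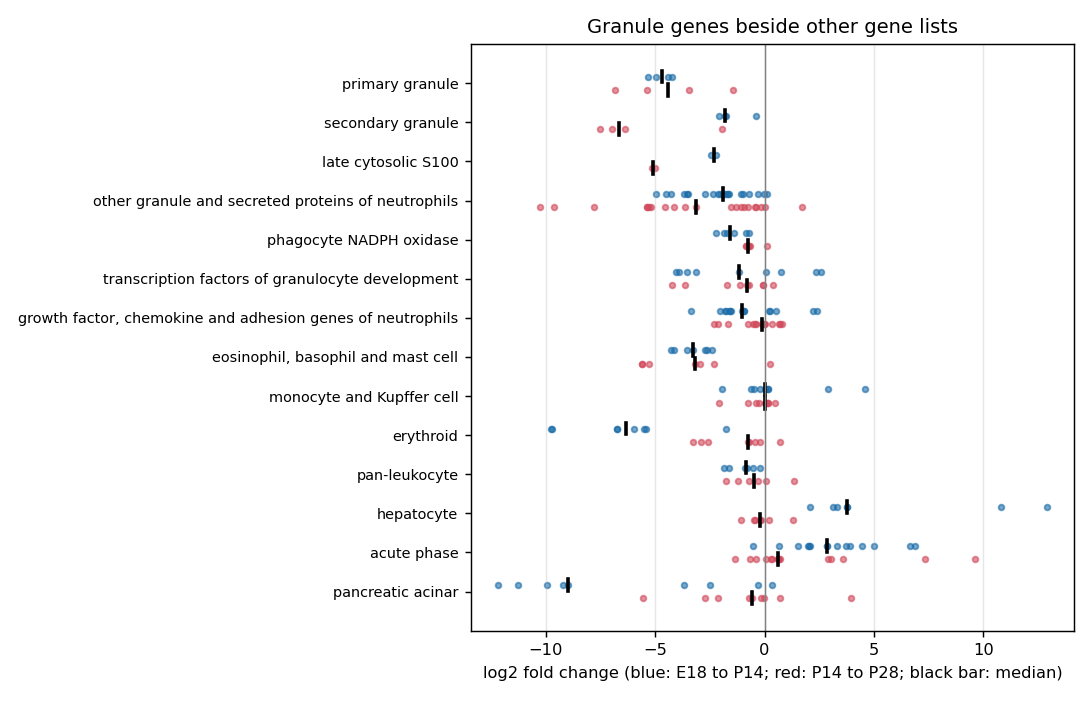
log2 fold change from E18 to P14 (blue) and from P14 to P28 (red) of each tested gene in each list, with black bars at the medians. The erythroid genes change mostly in the first interval (medians -6.34 and -0.74), the secondary granule and S100 genes mostly in the second (medians -1.78 and -6.67, and -2.33 and -5.08), and the primary granule genes in both (-4.67 and -4.42).

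Markers of other cells that the liver holds were set beside the members. Over all genes, 15.4% decreased from E18 to P14 and 5.98% from P14 to P28. All 8 erythroid genes fell from E18 to P14, with a median log2 fold change of -6.34, and their median from P14 to P28 was -0.74. Slc4a1, the anion exchanger of red cells, had 3300 and 4052 CPM at E18 and 3.56 and 4.94 at P14, and Hbb-b1, a beta-globin, fell by 6.73 on the log2 scale. The 7 eosinophil, basophil and mast cell genes tested all fell by P14 (median -3.27). From P14 to P28 their median was -3.16, with 4 called decreased (2 with limma on log2(RPKM + 0.1)). This list thus fell in both intervals, as the primary granule genes did (medians -4.67 and -4.42). Among the 7, Prg2, a protein of eosinophil granules, had 599 and 1890 reads at E18 and 225 and 69 at P14, and Epx, eosinophil peroxidase, had 204 and 443 reads at E18 and 0 in both adult samples. Fcer1a had 0 reads in both P28 samples, and Ear1 and Ear2, not tested, held 0 to 3 reads in every sample.

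Of the 10 monocyte and Kupffer cell genes, 1 fell and 2 rose from E18 to P14 (median 0.02), where 15.4% of all genes decreased and 13.8% increased. The Kupffer cell lectin Clec4f rose by 2.89 on the log2 scale while the log2 fold change of the macrophage gene Cd5l was 0. With library size alone as scaling the median was -0.84, with 1 called decreased and 2 increased, so the direction of the median depends on the scaling. Of the 6 pan-leukocyte genes, 2 fell by P14 (median -0.86), and 4 with library size alone. With that scaling 5095 of all 17081 genes decreased and 1266 increased. Lcp1, with the highest mean level among them, had 20.4 and 26.3 CPM at E18 and 49.5 and 50.7 in the adult, and Arhgdib fell by 1.64 by P14. The hepatocyte markers Alb and Apoa1 were at high levels at every stage, with 5317618 and 4699754 reads on Alb at E18, and all 7 hepatocyte genes rose by P14 (Alb by 2.09 and Apoa1 by 3.14 on the log2 scale), and 6 with library size alone. Of 15 acute phase genes, 12 rose by P14 (9 with library size alone), among them the fibrinogen genes Fgb (2.01) and Fga (1.97). Of 9 acinar genes tested, 7 fell by P14, and Pnliprp1 and Ctrb1 had 13305 and 9849 reads in the first E18 sample and 21936 and 24176 in the second. Cpa1 had 7962 and 14208 reads at E18 and 0 in the adult, Cel had 676 and 967 and then 0 at P14, and Pnlip had 1 and 5 and 0 in every later sample.

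The genes with a course most like that of each class were sought among all other tested genes, by the root-mean-square distance between centred log2 CPM over the 8 samples. Nearest to the primary granule genes were Ms4a3 (0.316), Fcnb (0.367), which encodes ficolin B, Olfm4 (0.472), Rbp2 (0.521) and A630012P03Rik (0.535). Nearest to the S100 pair was Gpc3 (0.429), a glypican of fetal hepatocytes, followed by Mgst2, Greb1, A630012P03Rik and Fbn2, at 0.484 to 0.563. No gene came as near to the mean of the secondary granule genes, where Fbn2 led at 0.78 and the others (Mir717, Mgst2, Neil3 and Akr1b7) followed at 0.854 to 0.956. That mean includes Lcn2, which lay 3.25 to 3.86 from the other 3 genes of its class, whereas Ngp and Camp lay 0.496 and S100a8 and S100a9 0.166 from each other.

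Of the 10 tested protein-coding genes that lie next to members and are no members, 4 fell from E18 to adult, 1 rose and 5 were not called, where 23.8% of all genes decreased and 16.8% increased. Ngp lies between Ptpn23 and Klhl18, whose log2 fold changes from E18 to adult were -0.14 and 0.34. Lcn2 lies between 1110008P14Rik and Ptges2 (1.04 and 1), and Nme6 on one side of Camp was at 0.05, none of them past 3-fold. On the other side of Camp the cell cycle phosphatase gene Cdc25a fell by 3.31, and Ccrl2 beside Ltf fell by 3.63 while Rtp3 on its other side rose by 2.01. Bzrap1 beside Mpo fell by 5.51, from 966 and 771 reads at E18 to 45 and 48 at P14, and the fourth to fall was Mcpt8 beside Ctsg.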

How the data were processed

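RNA-seq of whole liver was deposited as 1 file per sample. Per the file headers each holds, for each gene symbol, a read count and an RPKM. The authors aligned 100 bp read pairs to the mouse genome (mm9 in the submitters' processing notes) and transcriptome, counted reads per gene without normalization and computed RPKM per kilobase and per 1000000 mapped reads. The aligner, the annotation and the use of strand are not given in the sources used here. The labels name Trizol, the Methods a column kit.

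Samples were grouped by the labels. Counts were filtered with filterByExpr, scaled by TMM and fitted with glmQLFit of edgeR (version 4.0.16) over all 8 samples, with 1 coefficient per stage. Stages were compared with glmQLFTest, with Benjamini-Hochberg adjustment over all 17081 genes. A call needed an adjusted p below 0.1 and more than a 3-fold change. The study states each of these thresholds, but its figure gives the 3-fold set with a p from Fisher's exact test. SE is the log2 fold change divided by the square root of F. Where nothing says that samples came from separate animals, p-values measure the spread between samples only. Fold changes in the text are ratios of mean CPM. Against 0 reads they are bounds at 3 reads per library, and against 1 to 3 reads pooled ratios with exact binomial 95% intervals, which cover counting error only. On simulated E18 to adult data with 196 changed genes of 16630, edgeR recovered 95.9%. In the real E18 to adult comparison far more genes were called, 4061 decreased and 2863 increased of 17081. Recovery at that share of called genes was not tested.

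The members and lists were chosen with earlier results of these data known, and the motif letters with the promoters in view. The test of the difference between the 2 intervals and its other scalings were chosen after seeing the data. Ly6g, on a list, was not found in the files. Beside the 10 members, the genes named are, per neutrophil list, the 4 largest changes called and those that rose, per other list the 2 of highest level and any at 0 reads in a stage, and per class the 5 most alike. Csf3r, Irf8, Sfpi1, Epx, Saa1 and the neighbours were named after their values were seen. Saa3, Hp and Hpx also fall outside these rules. Promoters came from RefSeq. DESeq2 (version 1.42.0) and limma (version 3.58.1) on log2(RPKM + 0.1) were alternatives, run in R (version 4.3.3).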

Additional observations from a re-analysis of the deposited data

How the results depend on the processing

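Over the 4 comparisons, 678 member values kept their direction and call across the alternatives. From E18 to adult all 10 genes were called under every alternative that tested them. Keeping only genes with 10 or more reads in each sample left 4 of the 10 (Prtn3, Lcn2, S100a8 and S100a9), which called 4 from E18 to adult, 3 from E18 to P14, 3 from P14 to P28 and 0 from P28 to adult (edgeR, with 0 at an unadjusted p below 0.05), where none of the 3 genes called over all samples was tested. limma on log2(RPKM + 0.1) called 1 from P28 to adult in place of 3. The number called with a sample left out was 7 to 9 from E18 to P14, 9 to 10 from P14 to P28 and 2 to 4 from P28 to adult. Elane from P28 to adult turned from 0.02 to -0.06 with limma, to -0.01 with the replicate block and to -0.98 to 0.56 with a sample left out. In the same comparison S100a8 lay between -1.61 and 0.02 and Ctsg between -5.25 and 0 with a sample left out, and without the second adult sample Prtn3 and S100a8 passed (edgeR adjusted p = 0.023 and 0.077). Prtn3 passed from P14 to P28 with a 2-fold threshold and without the first P28 sample. The difference between the 2 intervals turned to -1.83 for Mpo and -2.54 for Ctsg with limma and to -0.44 for Ctsg with library size alone.

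Over all genes, the filter of 10 counts gave 2405 decreased from E18 to adult, 1357 from E18 to P14, 452 (343 increased) from P14 to P28 and 199 (61 increased) from P28 to adult. Library size alone moved the median log2 fold change of all genes from E18 to adult from -0.11 to -0.95, with 6159 decreased and 1653 increased, and 5095 and 1266 from E18 to P14. limma gave 1435 increased from E18 to adult, 1035 increased from E18 to P14, 466 decreased and 398 increased from P14 to P28, and 165 and 77 from P28 to adult. A 2-fold threshold gave 3998 decreased and 3722 increased from E18 to P14, 2112 and 1207 from P14 to P28, and 814 and 242 from P28 to adult. Beyond the filters and thresholds, the cause of these shifts was not tested. Between stages, the deviations of same-numbered samples from the stage mean had r of -0.414 (P28 and adult) to 0.161 (E18 and P28). At -0.414 the first sample of P28 deviated partly as the second adult sample did. A block on equal numbers cannot take this up. With the replicate number as a block, the calls among members were 10, 9, 9 and 3, as without it, and 4058 genes decreased from E18 to adult against 4061. Genes with few reads, as most members have in the adult, are limited by counting.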
